A study of Mus musculus with 6 samples.

Results

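The genes described here encode the proteoglycans, tenascins, link protein and hyaluronan synthase that build perineuronal nets and the looser matrix between brain cells. The 9 members Acan, Bcan, Ncan, Vcan, Cspg5, Hapln1, Tnc, Tnr and Has2 were found by gene name in a table of 41386 genes. All 9 were among the 18569 genes with enough reads to be tested. The libraries were bulk RNA-seq libraries of hippocampus from wild type C57BL/6 mice, 56 days old and, per the study's methods, male. In the I/R group (ischemia/reperfusion, 3 libraries) focal occlusion of the middle cerebral artery lasted 1.5 h and was followed by 24 h of reperfusion, and the comparison group was sham operated (3 libraries). Per the study's methods, the hippocampi came from the operated side and 3 hippocampi went into each replicate, so that the spread between libraries was a spread between pools.

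Perineuronal nets are lattices of extracellular matrix that wrap the cell bodies and proximal dendrites of certain neurons. In the hippocampus they are best known around parvalbumin-positive interneurons and CA2 pyramidal cells. Hyaluronan chains made at the cell surface form their backbone, lecticans (chondroitin sulfate proteoglycans) bind to hyaluronan with the help of link proteins, and tenascin-R ties the other ends of the lecticans together.

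In the I/R libraries, 4 members were higher than in sham and 3 were lower. Acan (aggrecan), Tnc (tenascin-C) and Has2 (hyaluronan synthase 2) rose 23.6-fold, 20.9-fold and 10.3-fold, and Vcan (versican) rose 1.38-fold. Tnr (tenascin-R), Bcan (brevican) and Cspg5 (neuroglycan C) fell by 1.04, 0.98 and 0.89 on the log2 scale. Hapln1 (link protein 1) and Ncan (neurocan) did not pass the test. A gene was called when its adjusted p in edgeR's quasi-likelihood test was under 0.05 and its fold change was over 1.2 in either direction. Over all genes tested 41.8% were called, 21.8% higher and 19.9% lower, so that 7 called of 9 stood against a large general change. The median log2 fold change was -0.18 over the members and 0.03 over all genes tested.

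**Figure D1:**
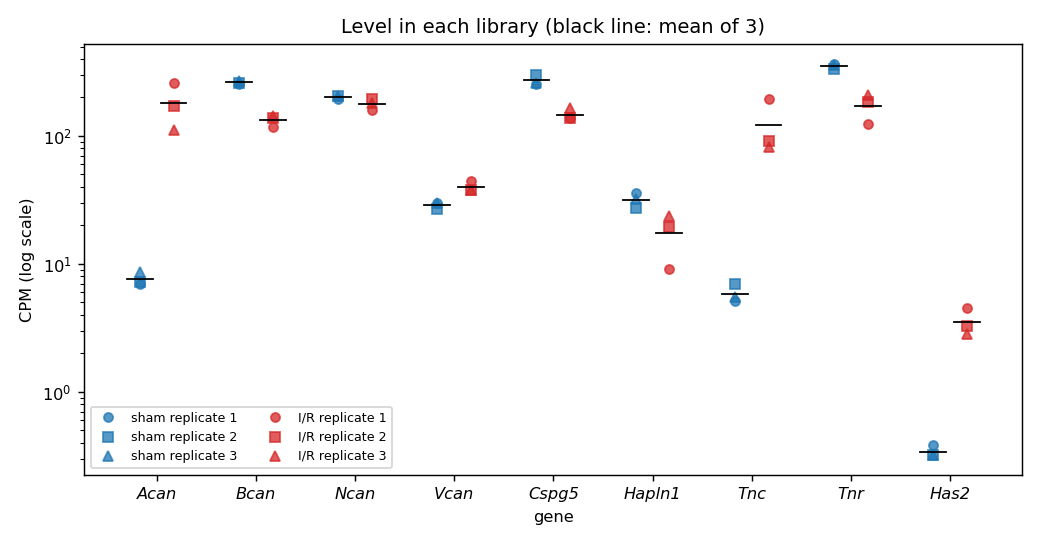
Level of the 9 members in each library, as scaled counts (CPM, log axis), with sham in blue, I/R in red, marker shape giving the replicate number and a black line at the mean of 3 libraries. Acan, Tnc and Has2 lay far above sham in all I/R libraries, Vcan lay above it by a small margin, Bcan, Cspg5, Hapln1 and Tnr lay below it, and the Ncan groups overlapped.

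The libraries held 37493042 to 44788547 counted reads. Levels are given as CPM, counts per equal library total scaled by the TMM method. Scaled by library size alone, the median log2 fold change of all genes was 0.28 in place of 0.03. Markers of neurons summed to 4502 to 4720 CPM in sham and to 1237 to 2502 CPM in I/R, with all 4 tested markers lower. Markers of parvalbumin and other GABAergic interneurons summed to 1167 to 1180 CPM in sham and 800 to 891 CPM in I/R (7 of 8 lower). That list covers GABAergic interneurons at large, and Pvalb itself had means of 47.4 CPM in sham and 31.9 CPM in I/R. CA2 markers summed to 314 to 333 CPM in sham and 119 to 202 CPM in I/R (4 of 6 lower). Choroid plexus markers, from a tissue next to the hippocampus, were low in I/R replicate 3 (140 CPM) and sham replicate 1 (171 CPM) and ranged from 2272 to 6232 CPM in the other 4 libraries. Of the markers found in the table, 0 were at 0 counts in all libraries.

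Acan, a defining lectican of perineuronal nets, had the largest rise among the members. The I/R libraries (replicates 1, 2 and 3, in this order throughout) had 259, 171 and 111 CPM, whereas the sham libraries had only 6.97, 7.21 and 8.72 CPM. Every I/R library lay above every sham library, and I/R replicate 1 was the highest. The group means were 180 ± 74.5 CPM (SD, n = 3) and 7.63 ± 0.95 CPM (SD, n = 3). The log2 fold change was 4.56 (SE 0.32, adjusted p = 0.000215 in edgeR), the rise ranked 154 of the 18569 genes by size, and it lay between 4.0 and 4.83 under all alternatives. The gene (MGP_BALBcJ_G0032374) lies on the plus strand of chromosome 7 from 78754160 to 78816523 in the coordinates of the deposited table, which follow a BALB/cJ annotation.

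Bcan, a lectican specific to the nervous system, moved the other way. The I/R libraries had 118, 138 and 143 CPM and the sham libraries 257, 261 and 269 CPM. The groups did not overlap, and the spread within each was small beside the gap. The I/R mean was 133 ± 13.2 CPM and the sham mean 262 ± 5.95 CPM (SD, n = 3 each), and the log2 fold change came to -0.98 (SE 0.10, adjusted p = 0.000599 in edgeR). In bulk libraries such as these, fewer cells of a type and less RNA per cell cannot be told apart. Bcan (MGP_BALBcJ_G0027351) lies on the minus strand of chromosome 3 from 85225135 to 85238115. Markers of oligodendrocyte precursors, a cell type known to make brevican, summed to 364 to 407 CPM in sham and 273 to 300 CPM in I/R (0 higher and 3 lower of 6). Markers of astrocytes, the other known source, summed to 4310 to 4659 CPM and 4282 to 4557 CPM (2 higher and 3 lower of 6). The astrocyte sum hid opposite moves of abundant markers. Gfap went from a mean of 403 CPM in sham to 1998 CPM in I/R, and Slc1a2 from 3082 to 1588 CPM. The part of these 2 cell types in the fall of Bcan was not tested.

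Ncan, a lectican that is abundant in the developing brain, overlapped between groups. It stood at 159, 195 and 182 CPM in the I/R libraries and at 193, 207 and 206 CPM in the sham libraries. I/R replicates 1 and 3 lay under the lowest sham library, and replicate 2 lay within the sham range. The log2 fold change was -0.18 (SE 0.10, adjusted p = 0.2 in edgeR), and its sign turned to 0.08 when scaled by library size alone. Ncan (MGP_BALBcJ_G0033668) lies on the minus strand of chromosome 8 from 67709727 to 67737178.

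Vcan, a lectican of loose matrix, vessel walls and glial precursors, had 44.3, 37.6 and 37.9 CPM after I/R, whereas sham libraries had 29.9, 26.7 and 30.2 CPM. The groups did not overlap, and the step between them was the smallest of the 7 called members. Means were 39.9 ± 3.78 CPM and 28.9 ± 1.90 CPM (SD, n = 3 each), and the log2 fold change came to 0.46 (SE 0.10, adjusted p = 0.00956 in edgeR). Over the alternatives its adjusted p lay between 0.00134 and 0.0524, and the call was lost when I/R replicate 3 and sham replicate 1, which had little choroid plexus RNA, were both left out. The log2 fold change was then 0.51, with 2 libraries left in each group, and with the choroid plexus markers as a covariate the call stood at 0.46 (adjusted p = 0.0194 in edgeR). Fibroblast markers summed to 81.2 to 100 CPM in sham and 132 to 214 CPM in I/R (4 higher and 0 lower of 6). Those of monocytes and macrophages summed to 3.59 to 4.99 CPM in sham and 12.1 to 38.2 CPM in I/R (3 higher and 0 lower of 4 tested). Markers of endothelium and pericytes summed to 262 to 269 CPM and 345 to 501 CPM (5 higher and 1 lower of 6). These lists moved with Vcan and with the other members that rose. Markers of oligodendrocyte precursors moved the other way, from 364 to 407 CPM in sham to 273 to 300 CPM in I/R (0 higher and 3 lower of 6). The part of any of these cells in those rises was not tested. Vcan (MGP_BALBcJ_G0020750) lies on the minus strand of chromosome 13 from 88126856 to 88214960 and overlaps Gm4117 on the other strand, which had 5 to 35 counts per library.

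Levels of different genes were compared per length, on the FPKM values (counts divided by gene length and library total) that the authors deposited. Brevican was the main lectican transcript of the sham hippocampus and aggrecan a trace. In sham, Bcan made up 83.2% to 83.4% of the summed FPKM of the 4 lecticans, whereas its I/R shares were 49.2%, 57.7% and 63.7%. Acan made up 0.647%, 0.657% and 0.772% in the sham libraries and 30.9%, 20.4% and 14.1% in the I/R libraries. Acan had a larger share than Ncan in I/R replicate 1 (13.1% for Ncan). In replicate 2 the order depended on the length used, with 20.4% for Acan and 16.1% for Ncan on the deposited FPKM, but 23.9% and 27.8% with the gene lengths of the table's own length column. The mean share of Acan was 0.692% ± 0.0697 in sham and 21.8% ± 8.47 after I/R (SD, n = 3 each, exact two-sided permutation test, p = 0.1). With 3 libraries against 3 this test cannot give a p under 0.1, so no share could pass 0.05. The share of Vcan was 3.37% in sham and 6.24% in I/R, again without overlap. The Ncan share was 12.7% in sham and 15.1% in I/R by FPKM, but its direction depended on the unit, since by CPM it was 6.36 percentage points lower in I/R (a difference of -6.36). For Acan and Bcan the size of the share, though not the direction of its change, depended on the length or unit. Mean Acan shares were 0.901% in sham and 25.5% in I/R with the table's own length column, and 1.52% and 33.2% by CPM. With the table's own length column Bcan made up 72.3% to 73.0% in sham and 38.2% to 51.2% in I/R. By CPM it made up 52.1% to 52.7% in sham and 20.3% to 30.2% in I/R. Mean Vcan shares with that length column were 2.03% in sham and 3.39% in I/R.

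The 4 lecticans together summed to 199, 200 and 208 FPKM in sham and 194, 179 and 167 FPKM in I/R. The sum was lower in every I/R library, by 22.5 FPKM between the means (a difference of -22.5, exact permutation test, p = 0.1). This sum also depended on the unit and its scaling, since by CPM it was higher in I/R by 30.7 (exact permutation test, p = 0.5). With counts divided by the table's own gene lengths, a choice made after seeing the data, the sums overlapped (a difference of -1.46, exact permutation test, p = 0.9). Both sums per length were scaled by library total alone, whereas CPM was scaled by TMM. The TMM factors were 1.06 to 1.15 in I/R and 0.908 to 0.92 in sham. Sums per length with TMM scaling were not tested.

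**Figure D2:**
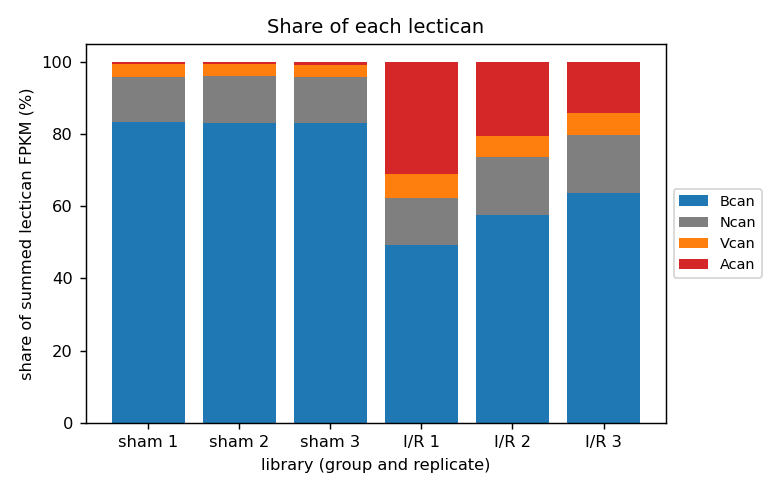
Share of each lectican in the summed FPKM of Acan, Bcan, Ncan and Vcan, in percent, with 1 stacked bar per library. The 3 sham bars were nearly alike, with Bcan at 83.2% to 83.4%, whereas the Acan segment took 14.1% to 30.9% of the I/R bars.

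Cspg5, a transmembrane chondroitin sulfate proteoglycan of neurons and glia with an EGF-like domain, fell. After I/R it had 137, 139 and 164 CPM, and the sham libraries had 257, 299 and 261 CPM. All I/R libraries lay well under all sham libraries. Means were 147 ± 14.7 CPM and 272 ± 23.4 CPM (SD, n = 3 each), and the log2 fold change came to -0.89 (SE 0.11, adjusted p = 0.00107 in edgeR). Cspg5 (MGP_BALBcJ_G0035319) lies on the plus strand of chromosome 9 from 108043283 to 108059264.

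Hapln1 encodes the link protein that locks lecticans onto hyaluronan and without which nets form poorly. The I/R libraries had 9.14, 19.6 and 23.5 CPM and the sham libraries 35.8, 27.2 and 32.1 CPM. The groups did not overlap, but I/R replicate 1 was far below the other two I/R libraries. Means were 17.4 ± 7.42 CPM and 31.7 ± 4.27 CPM (SD, n = 3 each), and the log2 fold change came to -0.87 (SE 0.30, adjusted p = 0.0511 in edgeR). The value sat at the threshold. Leaving out I/R replicate 1 gave a smaller log2 fold change, -0.56, that passed (adjusted p = 0.00247), without I/R replicate 3 it was -1.17 and passed (adjusted p = 0.0203), and DESeq2's Wald test gave an adjusted p of 0.0116. Of the 15 alternatives that kept the call rule, 5 called Hapln1 and 10 did not. Its adjusted p in edgeR went up to 0.157 without a count filter, 0.142 without sham replicate 1 and 0.116 without sham replicate 3. Of the other call rules, the looser one, without adjustment, also called Hapln1, and the stricter one, fold over 2, did not. The paper gives its own rule for changed genes as a p-value and a fold limit, without naming an adjustment. Hapln1 (MGP_BALBcJ_G0020749) lies on the plus strand of chromosome 13 from 88010638 to 88083091 and contains an unnamed gene on the other strand that had 117 to 239 counts per library against 416 to 1396 for Hapln1. Whether the counting used strand is not given in the sources used here.

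In vertebrate genomes each lectican gene has a link protein gene as its neighbour, and in the deposited coordinates each of the 4 pairs had 0 named genes between its members. Acan and Hapln3 lay 2 bases apart with their ends facing, Ncan and Hapln4 2.18 kb apart, Bcan and Hapln2 21.8 kb apart, and Vcan and Hapln1 43.8 kb apart. The neighbours did not move alike. Beside Acan at 4.56, Hapln3 had a log2 fold change of 0.11 (adjusted p = 0.782 in edgeR) with 44 to 64 counts in every library. Bcan fell by 0.98 and Hapln2, the link protein of myelinated fibres, rose by 1.03 (SE 0.11, adjusted p = 0.000696 in edgeR). Hapln4, the link protein that partners brevican at inhibitory synapses, fell by 1.43 (SE 0.30, adjusted p = 0.00713 in edgeR) next to Ncan at -0.18. In each pair the lectican to link protein log2 ratio of every I/R library lay on the same side of all sham libraries (exact two-sided permutation test, p = 0.1 for each pair, the smallest value possible).

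**Figure D3:**
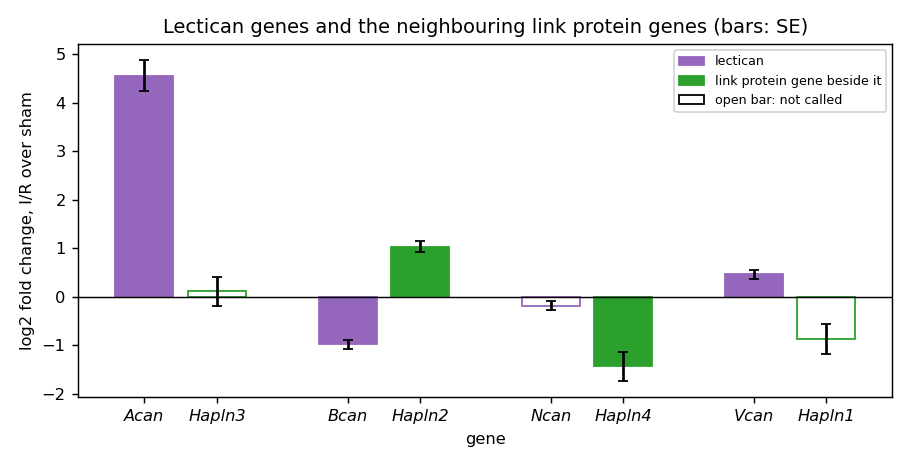
Log2 fold change (I/R over sham) of each lectican gene in purple and of the link protein gene beside it on the chromosome in green. Error bars give the SE derived from the edgeR test, and open bars mark genes that were not called. Acan at 4.56 stood beside Hapln3 at 0.11, and Bcan at -0.98 stood beside Hapln2 at 1.03.

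Tnc and Tnr encode the main tenascins of the central nervous system. Tenascin-C is known from development and injury, and tenascin-R is the crosslinker of mature nets. Tnc had 195, 91.7 and 82.0 CPM after I/R, whereas the sham libraries had 5.12, 6.94 and 5.52 CPM. Every I/R library was far above sham, and replicate 1 was the highest of them. Means were 123 ± 62.5 CPM and 5.86 ± 0.954 CPM (SD, n = 3 each), and the log2 fold change came to 4.39 (SE 0.36, adjusted p = 0.000315 in edgeR), which ranked 170 among rises. Leaving out I/R replicate 1 gave 3.88. Tnc (MGP_BALBcJ_G0028356) lies on the minus strand of chromosome 4 from 60916157 to 61003608 and overlaps 8030451A03Rik on the other strand, which had 12 to 57 counts per I/R library and 0 to 5 per sham library, against 3281 to 8868 and 190 to 282 for Tnc.

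Tnr had 123, 185 and 208 CPM after I/R, whereas the sham libraries had 368, 334 and 358 CPM. The groups did not overlap, and I/R replicate 1 was the lowest library. Means were 172 ± 43.7 CPM and 353 ± 17.9 CPM (SD, n = 3 each), and the log2 fold change came to -1.04 (SE 0.18, adjusted p = 0.00361 in edgeR), so that in the fit to all libraries it was the only member to fall by a fold over 2. That order rests on I/R replicate 1, without which Tnr stood at -0.85 and Bcan at -0.90. Without I/R replicate 2 or 3, Bcan stood at -1.03 or -1.06 and also passed a fold of 2. Called at that fold were 14.9% of all genes tested, 10.2% higher and 4.67% lower, and 4 members, of which Acan, Tnc and Has2 were higher. Tnr (MGP_BALBcJ_G0016580) lies on the plus strand of chromosome 1 from 158552096 to 158965605 and contains Gm10530 on the same strand, which had 1 to 8 counts per library. Oligodendrocyte markers, from the cells known to make much of the tenascin-R, summed to 5687 to 7064 CPM in sham and 4518 to 5033 CPM in I/R (0 higher and 2 lower of 5), and the part of those cells in the fall was not tested.

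The tenascins were also compared with each other per length. The log2 ratio of Tnc to Tnr in FPKM was -6.85, -6.27 and -6.71 in the sham libraries and -0.0271, -1.70 and -2.03 in the I/R libraries. In I/R replicate 1 the pair had almost equal FPKM (37.4 for Tnc and 38.1 for Tnr), and in the other I/R libraries Tnr was the higher. The level of this ratio depended on the gene length behind it, since with the table's own length column it was 1.43, -0.236 and -0.568 in the I/R libraries and by CPM 0.66, -1.01 and -1.34. The difference between the groups did not depend on it. The means were -6.61 ± 0.302 and -1.25 ± 1.07 (SD, n = 3 each), a difference of 5.36 (exact two-sided permutation test, p = 0.1).

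Has2 encodes the synthase that makes long hyaluronan chains. It had few reads, with 205, 131 and 113 counts after I/R and 15, 13 and 11 counts in the sham libraries, which is 4.5, 3.28 and 2.83 CPM against 0.384, 0.32 and 0.32 CPM. The groups were far apart despite the low level. Means were 3.54 ± 0.868 CPM and 0.341 ± 0.0372 CPM (SD, n = 3 each), and the log2 fold change came to 3.36 (SE 0.30, adjusted p = 0.000375 in edgeR). On the log2(FPKM + 1) scale, which understates the change of low genes, it was 0.83. The other synthases did not move as a group, since Has1 rose by 2.24 (SE 0.42) and Has3 fell by 0.96 (SE 0.19, adjusted p = 0.00547 in edgeR). Has2 (MGP_BALBcJ_G0021826) lies on the minus strand of chromosome 15 from 53806846 to 53836274 and overlaps Has2os on the other strand, which had 5 to 16 counts per I/R library and 1 to 2 per sham library.

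Counted over the members, 4 were higher in every I/R library than in every sham library and 4 were lower, which is 8 of 9 without overlap against 57.4% of all genes tested (29.3% higher and 28.1% lower). The I/R libraries were not equally far from sham. Relative to the sham mean, the I/R libraries stood at 5.08, 4.48 and 3.86 on the log2 scale for Acan. Tnr stood at -1.52, -0.94 and -0.76, and Hapln1 at -1.79, -0.69 and -0.43. Replicate 1 was thus the farthest of the I/R libraries for the members that rose and for those that fell. It was so for 9 of 9 members, and for 75.3% of the 7756 called genes. That library also had the lowest sum of neuron markers, 1237 CPM against 2274 and 2502 CPM in the other I/R libraries. Without it 4 members were called higher (21.4% of all genes) and 4 lower, Hapln1 included (21.2%, together 42.6%).

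**Figure D4:**
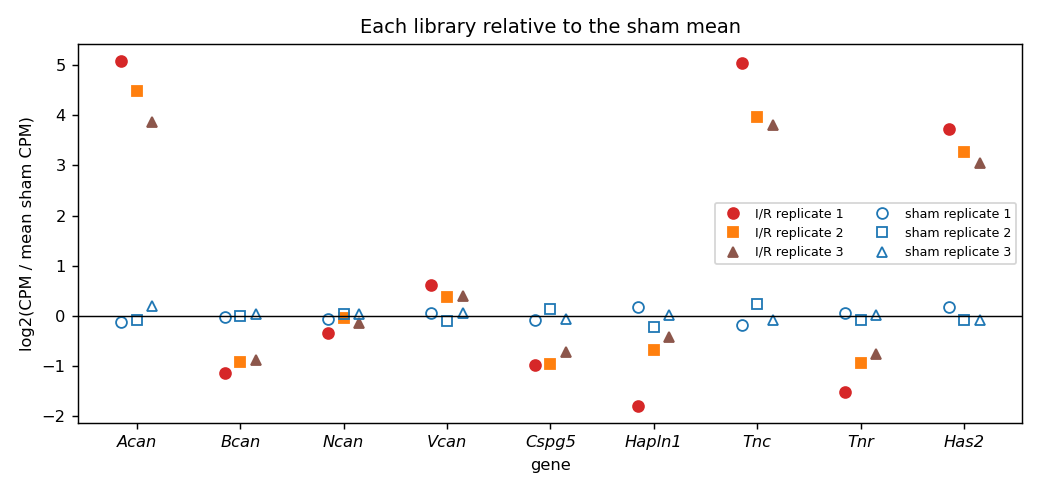
Log2 of the CPM in each library over the mean sham CPM for the 9 members, with I/R replicates as filled and sham replicates as open markers. I/R replicate 1 (red circles) was farthest from 0 among the I/R libraries for every member, from 5.08 for Acan to -1.79 for Hapln1.

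The sequences upstream of the members with the largest rises and falls that have a RefSeq entry are shown because these genes moved in opposite directions. They are the 250 bases before the RefSeq transcription start on GRCm38.p6, 5′ to 3′ on the gene's strand, and 7 of 9 members had such a window (not Cspg5 and Has2). The windows are chr7:79052976-79053225 (plus strand) for Acan, chr4:64047016-64047265 (minus strand) for Tnc, chr3:88000357-88000606 (minus strand) for Bcan and chr1:159523519-159523768 (plus strand) for Tnr. Capitals mark matches on either strand to the GC box GGGCGG or the TATA motif TATAAA. Matches to the AP-1 motif TGANTCA and the HIF motif ACGTG were also searched, with 0 found in these 4 windows.
Acan: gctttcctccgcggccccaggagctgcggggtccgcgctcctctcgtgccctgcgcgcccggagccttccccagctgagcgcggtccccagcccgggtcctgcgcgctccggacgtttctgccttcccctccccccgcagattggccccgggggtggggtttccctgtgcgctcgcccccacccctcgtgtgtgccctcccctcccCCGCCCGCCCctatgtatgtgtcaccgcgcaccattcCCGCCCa
Tnc: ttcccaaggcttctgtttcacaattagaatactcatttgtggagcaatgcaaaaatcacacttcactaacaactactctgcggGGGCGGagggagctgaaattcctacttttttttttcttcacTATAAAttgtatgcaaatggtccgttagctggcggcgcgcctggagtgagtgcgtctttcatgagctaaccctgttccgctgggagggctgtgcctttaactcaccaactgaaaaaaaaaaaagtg
Bcan: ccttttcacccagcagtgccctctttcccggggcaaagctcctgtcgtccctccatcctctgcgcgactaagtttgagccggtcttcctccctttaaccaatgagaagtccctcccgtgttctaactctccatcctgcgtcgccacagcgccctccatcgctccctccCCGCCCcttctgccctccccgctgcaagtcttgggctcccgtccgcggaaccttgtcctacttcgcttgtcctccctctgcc
Tnr: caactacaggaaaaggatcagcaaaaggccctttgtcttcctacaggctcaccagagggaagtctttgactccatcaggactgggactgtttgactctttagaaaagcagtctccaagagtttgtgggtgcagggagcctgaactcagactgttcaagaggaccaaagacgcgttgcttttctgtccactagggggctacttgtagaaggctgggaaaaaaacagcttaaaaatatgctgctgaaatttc

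The Acan window was 74.4% G and C, against a median of 52.4% over 32851 such windows, and held 3 GC boxes at 44, 40 and 7 bases before the start, of which the first 2 overlap. The Bcan window (62.0% G and C) held 1 GC box. In the Tnc window (44.8%) there were 1 GC box, 167 bases before the start, and 1 TATA motif, 126 bases before it. Tnr (46.8%) had no match to any of the 4 motifs. Over all windows, 32.7% held a GC box, 12.4% the TATA motif, 16.6% the HIF motif and 6.75% the AP-1 motif. These matches describe letters only, and Tnc had 2 windows in the RefSeq table, of which 1 is shown.

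The genes whose profile over the 6 libraries was most like that of Acan, the called member with the largest rise, were Tnfrsf12a, Ccl9 and Gdf15. The measure was the Euclidean distance between log2(CPM + 0.5) values minus their sham mean, and it was 0.554, 0.589 and 0.654. The added 0.5 understates the change of low genes, and Gdf15 had only 0.154 to 0.291 CPM in the sham libraries. In the fit, the log2 fold changes of Tnfrsf12a, Ccl9 and Gdf15 were 4.37, 5.12 and 6.46. For Tnr, the member with the largest fall when all libraries were used, the closest genes were Synj1 (distance 0.0719), Sms (0.0842) and D130043K22Rik (0.107), with log2 fold changes of -1.01, -1.06 and -1.07. The distances for Tnr were smaller than those for Acan, and the reason for this was not tested.

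Around the members, 86 further genes that make, bind or cut the same matrix were counted, of which 85 were tested (Chst13 was not). Of these, 30 were called higher and 25 lower, and 30 did not pass, against 21.8% higher and 19.9% lower among all genes tested. The median log2 fold change was -0.02 against 0.03 for all genes tested. Scaled by library size alone, the split was 36 higher and 15 lower, against 34.1% and 10.9% of all genes tested (together 45.0%).

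The lectican-cleaving ADAMTS proteases were called in 1 direction, with 4 of 7 higher and 0 lower, beside 21.8% and 19.9% of all genes tested, and a median log2 fold change of 1.45. Adamts1 had 343, 242 and 170 CPM after I/R and 28.8, 24.6 and 29.5 CPM in the sham libraries, and the log2 fold change came to 3.19 (SE 0.25, adjusted p = 0.00028 in edgeR). Adamts9 rose by 2.89 (SE 0.31), and Adamts5 and Adamts4 by 2.33 and 1.45. As with Acan and Tnc, I/R replicate 1 was the highest library for each of these proteases. Adamts8, Adamts15 and Adamts20 had log2 fold changes of 0.30, 0.02 and -0.26 and did not pass.

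Of the 15 hyaluronan and link protein genes, 9 were called higher, 2 lower and 4 did not pass, with a median of 0.76. Over all genes tested, 21.8% were called higher and 19.9% lower. Cd44, the main cell surface receptor for hyaluronan, had 109, 72.6 and 68.0 CPM after I/R and 3.61, 4.53 and 2.64 CPM in the sham libraries. The groups were far apart, with a log2 fold change of 4.53 (SE 0.26, adjusted p = 0.000169 in edgeR), close in size to that of Acan. Lyve1, a hyaluronan receptor of lymphatic endothelium and of some macrophages, rose by 2.67 (SE 0.25, adjusted p = 0.000439 in edgeR). Ugdh, which makes the UDP-glucuronic acid used for hyaluronan and chondroitin sulfate, rose by 0.76, and the hyaluronidase Hyal1 rose by 1.56. The genes called lower were Hapln4 and Has3.

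Among the 21 tested enzymes of chondroitin sulfate synthesis, 4 were called higher, 10 lower and 7 did not pass, with a median log2 fold change of -0.37. All genes tested gave 21.8% higher and 19.9% lower. Chst12, a chondroitin 4-O-sulfotransferase, fell by 0.99 (SE 0.15, adjusted p = 0.00195 in edgeR). Ust, which sulfates uronic acid in the chain, fell by 0.96 (SE 0.24, adjusted p = 0.0146 in edgeR). Dse, the epimerase that turns chondroitin into dermatan sulfate, rose by 0.66 (SE 0.19), and Chsy1, a chain-extending synthase, by 0.61 (SE 0.13, adjusted p = 0.00792 in edgeR). The Dse call (adjusted p = 0.0267 in edgeR) was lost when I/R replicate 3 (0.0776), sham replicate 2 (0.104) or sham replicate 3 (0.0997) was left out.

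Of the 26 other proteoglycan core proteins, 7 were called higher, 8 lower and 11 did not pass, with a median of -0.30. The shares over all genes tested were 21.8% higher and 19.9% lower. Sdc1 (syndecan-1) rose by 3.23 (SE 0.37, adjusted p = 0.000831 in edgeR). Srgn (serglycin), the granule proteoglycan of blood cells, rose by 2.88 (SE 0.24, adjusted p = 0.000336 in edgeR). Fmod (fibromodulin) fell by 1.82 (SE 0.32), and Spock1 (testican-1), a neuronal proteoglycan, by 1.14 (SE 0.27).

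The receptors for chondroitin sulfate and tenascins gave 4 higher, 5 lower and 2 that did not pass of 11, with a median of -0.43. Beside this, 21.8% of all genes tested were called higher and 19.9% lower. Rtn4r, the Nogo receptor of neurons, fell by 1.30 (SE 0.25, adjusted p = 0.00512 in edgeR), and Cntn1 (contactin-1), a neuronal partner of tenascin-R, by 1.13 (SE 0.22, adjusted p = 0.00525 in edgeR). Itgb1, the beta subunit of tenascin-binding integrins, rose by 1.44 (SE 0.13, adjusted p = 0.000408 in edgeR) and Egfr by 0.85 (SE 0.24, adjusted p = 0.0227 in edgeR). The Egfr call was lost without any single sham library, with adjusted p values of 0.0821, 0.0656 and 0.0677 without sham replicates 1, 2 and 3.

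Of the 5 other tenascins and net components, 2 were called higher and 0 lower, beside 21.8% and 19.9% of all genes tested. Nptx2, a secreted pentraxin that gathers AMPA receptors on interneurons and is bound by nets, had 362, 297 and 307 CPM after I/R and 37.9, 36.8 and 41.3 CPM in the sham libraries. It rose by 3.06 on the log2 scale (SE 0.12, adjusted p = 4.45e-05 in edgeR), with little spread in either group. Tnn (tenascin-N) rose by 5.30 (SE 0.45, adjusted p = 0.000338 in edgeR), a value that rests on 3, 4 and 1 counts in the sham libraries against 133, 142 and 84 in I/R. Otx2, a homeoprotein that nets take up, ranged from 0.512 to 19.1 CPM in sham and was low in the 2 libraries with little choroid plexus RNA.

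**Figure D5:**
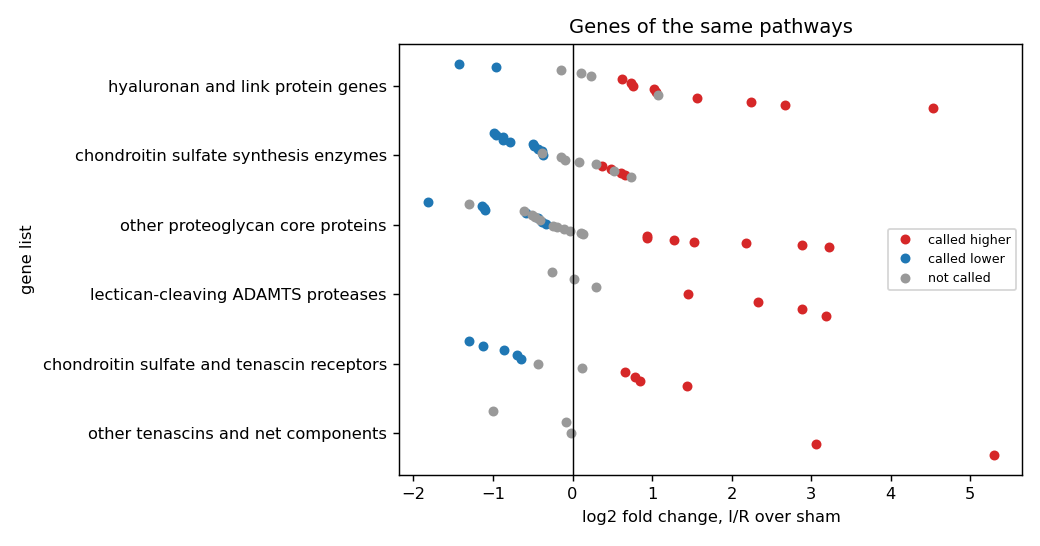
Log2 fold change (I/R over sham) of the 85 tested genes in 6 lists of matrix genes, with 1 point per gene, red for called higher, blue for called lower and grey for not called. The called ADAMTS proteases all lie to the right of 0, whereas the lists of synthesis enzymes and core proteins lie on both sides of it.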

How the data were processed

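The study's samples were 6 bulk hippocampus libraries, 3 I/R and 3 sham, with groups taken from their titles. The authors aligned reads with TopHat2 to an Ensembl genome, counted reads per gene with HTSeq and deposited raw counts per gene. The authors also deposited FPKM values, which divide counts by a gene length and by the library's counted reads. These lengths differ from the length column of the same table. The submitters' processing notes name Bowtie 0.12.2 and the build mm8, while the table's identifiers are of a BALB/cJ annotation and the mice were C57BL/6. Columns with the authors' fold changes and p-values were not used. Rows without a gene name, 4.24% to 4.74% of the counts, stayed in, since they carry gene identifiers.

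Counts were filtered with filterByExpr, scaled by TMM and tested over all genes with edgeR 4.0.16 (glmQLFit, robust, and glmQLFTest, R 4.3.3), with Benjamini-Hochberg adjustment. Fold changes come from this fit, and the script was tested on simulated data. Each SE was derived as the absolute log2 fold change over the square root of the test's F statistic. Total counts of 37493042 to 44788547 per library set the counting precision. Shares of FPKM were compared by exact two-sided permutation tests. Alternatives were other scalings and filters, DESeq2 1.42.0, limma 3.58.1 on log2(FPKM + 1), the replicate number as a block, a choroid plexus covariate, other call rules and leaving out libraries. A comparison on the table's own length column was added after seeing the data.

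The members and gene lists were chosen with earlier results of these data known. All members were named, and from each list the 2 called genes with the largest rise and the 2 with the largest fall, plus the 3 genes with the closest profile for 2 members. Ugdh, Hyal1, Has1 and the other ADAMTS genes and Otx2 were named after their values were seen. Stretches of 50 bases shared with other genes' transcripts (GENCODE M21) made up 0% (Acan, Bcan, Vcan) to 2.71% (Tnr) of the members' transcript positions. Promoter windows are from RefSeq (GRCm38.p6). Microglia markers, also listed, summed to 167 to 195 CPM in sham and 160 to 215 CPM in I/R (2 higher and 2 lower of 5). Ly6c2 and Map2 were not analysed here, and Plac8 and F10 had too few counts to be tested.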

Additional observations from a re-analysis of the deposited data

How the results depend on the processing

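Acan, Tnc, Has2, Bcan, Cspg5 and Tnr kept their call and direction under every change of scaling, filter, test, block, covariate and left-out library. A stricter call rule, fold over 2, left 3 members higher and 1 lower. It left 18 and 7 of the matrix genes higher and lower, against 10.2% and 4.67% of all genes tested. A looser call rule, on the unadjusted p, gave 4 members higher and 4 lower, Hapln1 included. It gave 32 and 29 matrix genes higher and lower, against 25.5% and 23.2% of all genes tested. Scaled by library size alone, the median log2 fold change of all genes moved from 0.03 to 0.28, and Ncan turned to 0.08. On log2(FPKM + 1) that median was 0.18 and Ncan turned to 0.07. Under each, 15 matrix genes were lower, against 10.9% of all genes tested. The count was also 15 without I/R replicate 3 and sham replicate 1 together, against 13.1% of all genes. Leaving out each library in turn gave 16 to 27 lower. The share of all genes lower was 13.2% without sham replicate 3 (16 matrix genes) and 21.2% without I/R replicate 1 (27 matrix genes). With CPM in place of FPKM the Ncan share difference was -6.36 percentage points and the lectican sum difference 30.7, and with the table's length column the sum differed by -1.46. Of these sums, only that by CPM was scaled by TMM. Without the count filter, 21 matrix genes were lower, against 12.2% of all genes tested. Among the named genes, Hapln4, Ust and Spock1 then lost their calls (adjusted p = 0.0548, 0.0558 and 0.0539 in edgeR). The causes were not tested.

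With the replicate number as a block, 4 members were higher and 3 lower, and 28 and 23 matrix genes, against 17.6% and 16.5% of all genes tested. Same-numbered libraries did not deviate together (r = -0.139, 0.0426 and -0.236 over genes), so the numbers were not taken to pair them. With 3 libraries a group, permutation tests cannot pass 0.05. Has2 and Tnn rest on few reads, with 11 to 15 and 1 to 4 counts in their sham libraries.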
